A study of Drosophila melanogaster with 6 samples.

Results

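The lysozyme genes described here are the 7 fruit fly (Drosophila melanogaster) genes whose symbol is Lys followed by 1 capital letter: LysB, LysC, LysD, LysE, LysP, LysS and LysX. They are 7 of the 15010 genes in the deposited table and are taken by symbol as a gene family, which was picked for description with earlier results of these data known. Polyadenylated RNA was sequenced from adult progeny in 6 libraries labelled intestine. The 3 control libraries are from progeny of MTD-GAL4/+ mothers, and the 3 libraries called InR-DN here, titled reprogrammed by the submitters, are from progeny of MTD-GAL4/InR-DN mothers. MTD-GAL4 is a combination of GAL4 driver transgenes active in the female germline, and InR-DN is a dominant-negative form of the insulin receptor. Fathers were OregonR in both groups, so all progeny share a wild-type father and a mother with MTD-GAL4. The study asked how metabolic stress in the mother's germline alters the intestine of her progeny. Progeny may carry a transgene from the mother, and an effect of the maternal germline and of an inherited transgene cannot be told apart. Age and sex of the progeny, and whether libraries are separate crosses or cultures of flies, are not stated in the labels, so p-values measure the spread between these libraries, which may be technical.

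Lysozymes cut the glycan chains of peptidoglycan, the polymer of the bacterial cell wall. Fruit flies feed on microbes, and their c-type (chicken-type) lysozymes are known mainly as digestive enzymes that are made in the gut rather than induced by infection. LysB, LysC, LysD and LysE are known as closely related copies active in the midgut, LysP as a gene of the adult salivary gland, LysS as a gene of the larval gastric caeca, and LysX as a gene of the midgut around metamorphosis. LysB, LysD and LysE encode nearly identical proteins, so a read can match more than 1 of these genes. No source used here gives how such reads were assigned, and the split among LysB, LysC, LysD and LysE is uncertain for that reason.

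The 6 libraries were sequenced to a similar depth, with 33935336 to 45161715 reads recovered from the table per library. Levels are in TPM (transcripts per 1000000), which are corrected for transcript length and sum to 1000000 in each library. The label intestine was checked against marker genes. The summed level of 8 midgut digestion genes, among them the trypsin gene alphaTry, lay at 14957 to 22131 TPM, and enteroendocrine and progenitor markers were present. Markers of other body parts were abundant too, with 6 photoreceptor genes summing to 3579 to 4913 TPM, 6 oocyte and nurse cell genes to 1112 to 1305 TPM and 2 oenocyte genes to 6764 to 10625 TPM. The libraries are therefore not intestine alone. InR, the insulin receptor gene, lay at 18.7 to 22.8 TPM with overlapping groups, and this is no check of a transgene expressed in the mother.

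All 7 genes lie within 33.5 kb on chromosome arm 3L, and all are annotated with a single exon. In the BDGP6.54 annotation, whose build may differ from the one the authors used, LysX (FBgn0004431) spans 1194739 to 1195302 on the minus strand and LysB (FBgn0004425) 1207371 to 1207981 on the plus strand. LysC (FBgn0004426) spans 1210485 to 1210726 on the plus strand, LysD (FBgn0004427) 1210717 to 1211196 on the minus strand and LysE (FBgn0004428) 1212827 to 1213406 on the plus strand. LysP (FBgn0004429) spans 1218082 to 1218696 on the minus strand and LysS (FBgn0004430) 1227747 to 1228238 on the plus strand. The 4 closely related copies thus sit together within 6.0 kb, and LysP, LysS and LysX flank them.

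LysX stands outside the gene mwh, while the other 6 genes lie inside introns of mwh, a gene of wing hair formation, without touching its exons. Of these 6, 4 are on the strand of mwh and 2 on the other strand. mwh itself was at a low level of 1.32 to 3.00 TPM. LysC is annotated as a pseudogene of 242 bases and shares 10 bases, 4.13% of its length, with the end of LysD on the opposite strand. The shortest length at which the deposited LysC values are whole reads, however, is 487 bases, and its multiples give whole reads too. The authors therefore counted a longer LysC than the current annotation holds. No source used here gives the ends of that longer LysC, which may share more bases with LysD.

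**Figure D1:**
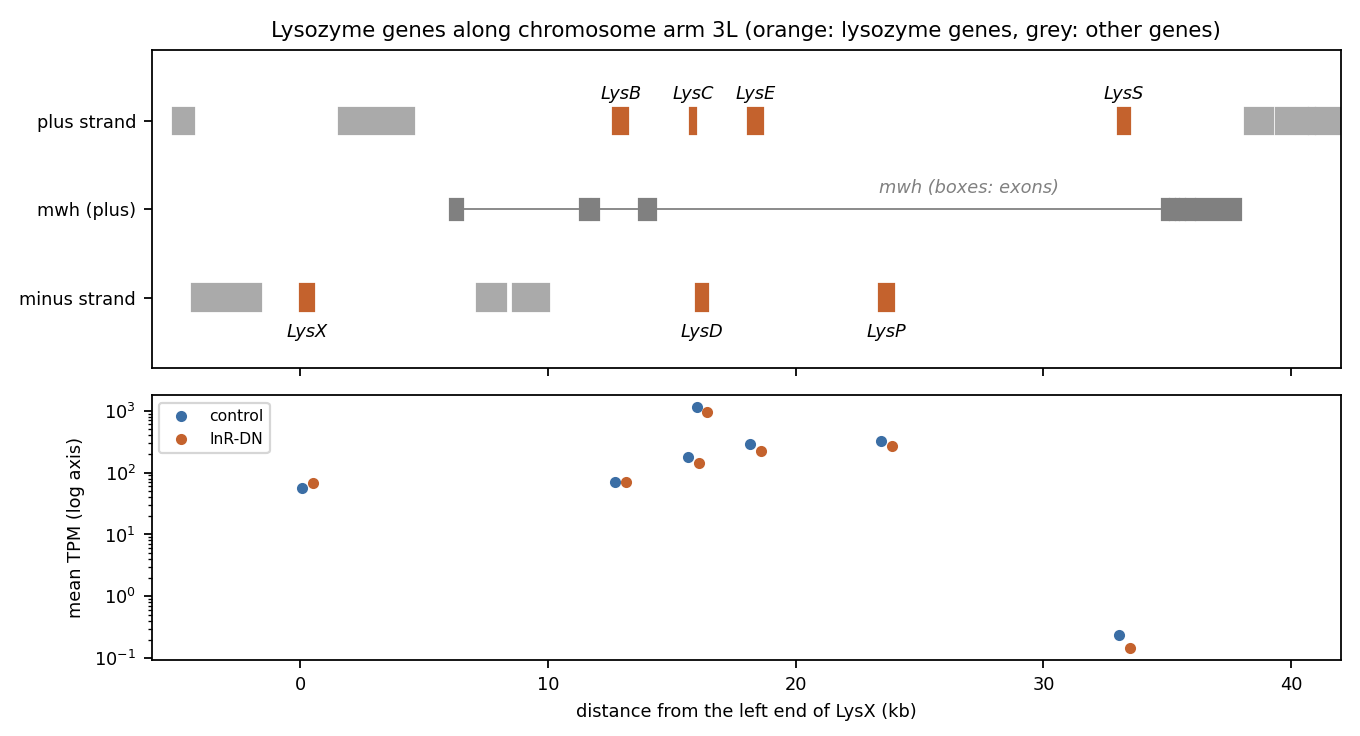
Upper panel: positions of the 7 lysozyme genes (orange) and neighbouring genes (grey) by strand, against distance from the left end of LysX in kb, with the exons of mwh as boxes on a line. Lower panel: mean TPM (n = 3 per group) on a log axis, with groups offset sideways. LysB to LysE lie within 6.0 kb and LysD has the highest level.

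LysD was by far the most abundant lysozyme transcript with a mean over the 6 libraries that placed it at rank 134 in the table. In the control replicates 1 to 3 LysD lay at 1123, 1164 and 1117 TPM, and in the InR-DN replicates 1 to 3 at 715, 977 and 1206 TPM. The controls were close together, and the InR-DN libraries spread to either side of them, so the groups overlapped. LysD averaged 1135 ± 25.2 TPM in controls and 966 ± 245 TPM in InR-DN libraries (SD, n = 3 per group). The log2 fold change of LysD, InR-DN minus control on the log2(TPM + 1) scale, was -0.26 (standard error 0.18), with a 95% interval of -0.68 to 0.16 (limma, adjusted p = 1.00). The difference was smaller than the spread between the InR-DN replicates, and the interval allows from a clear decrease to a slight increase.

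LysE, the plus-strand copy next to LysD, lay at 264, 308 and 293 TPM in control replicates 1 to 3 and at 165, 236 and 272 TPM in InR-DN replicates 1 to 3. The groups overlapped only through InR-DN replicate 3, which was above control replicate 1. LysE averaged 288 ± 22.5 TPM in controls and 224 ± 54.6 TPM in InR-DN libraries (SD, n = 3 per group). Its log2 fold change was -0.39 (standard error 0.18, 95% interval -0.82 to 0.04, limma adjusted p = 1.00). LysE had the lowest InR-DN to control ratio of mean TPM, 0.777, among the 6 members that could be tested.

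LysC, the copy now annotated as a pseudogene, was read at 150.5, 184 and 193 TPM in control replicates 1 to 3 and at 94.5, 148 and 189.7 TPM in InR-DN replicates 1 to 3. Here too InR-DN replicate 1 was the lowest library, and InR-DN replicate 3 reached the level of the controls. The log2 fold change of LysC was -0.34 (standard error 0.25, 95% interval -0.92 to 0.25, limma adjusted p = 1.00).

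LysB, the copy at the left end of the 4, lay at 69.8, 60.3 and 78.1 TPM in control replicates 1 to 3 and at 44.3, 71.7 and 94.7 TPM in InR-DN replicates 1 to 3. The lowest and the highest of all 6 libraries were both in the InR-DN group, and the group means were almost equal. LysB averaged 69.4 ± 8.88 TPM in controls and 70.3 ± 25.2 TPM in InR-DN libraries (SD, n = 3 per group), and its log2 fold change was -0.04 (standard error 0.26, 95% interval -0.67 to 0.59, limma adjusted p = 1.00). The sign of the LysB value is negative on the log2 scale, although its mean TPM was slightly higher in InR-DN libraries.

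LysP, known from the salivary gland, lay at 318, 353 and 304 TPM in control replicates 1 to 3 and at 249.7, 283 and 280.2 TPM in InR-DN replicates 1 to 3. All 3 InR-DN libraries were below all 3 controls, and LysP was the only lysozyme gene whose groups did not overlap. It averaged 325 ± 25.1 TPM in controls and 271 ± 18.6 TPM in InR-DN libraries (SD, n = 3 per group). Its log2 fold change was -0.26 (standard error 0.08), and the 95% interval ran from -0.46 to -0.06. The limma p was 0.0177 unadjusted and 1.00 adjusted over all 10816 genes tested, so LysP did not pass the test. Its unadjusted p stayed below 0.05 when any InR-DN library was left out (log2 fold changes of -0.20 to -0.29), while without control replicate 2 the value was -0.20 with an unadjusted p of 0.0734. The 2 oenocyte marker genes, Cyp4g1 and eloF, belong to hydrocarbon synthesis. Their sum lay at 9345 to 10625 TPM in controls and at 6764 to 9310 TPM in InR-DN libraries, a narrow gap. By gene, the groups did not overlap for eloF, with the InR-DN group lower as for 3.78% of all genes. Cyp4g1 overlapped, with 8996 TPM in InR-DN replicate 2 and 8932 TPM in control replicate 3. Of the marker lists, only this one held genes with an unadjusted limma p under 0.05 (0.0271 for Cyp4g1 and 0.0127 for eloF), and neither passed the adjusted p. No marker list held genes chosen for the salivary gland. The part of these 2 genes in the LysP values was not tested. In whole-tissue RNA, fewer cells of a type and less RNA per cell cannot be told apart.

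LysX, known from the midgut around metamorphosis, lay at 73.0, 64.4 and 31.5 TPM in control replicates 1 to 3 and at 63.8, 42.8 and 95.4 TPM in InR-DN replicates 1 to 3. LysX was the most variable of the tested members in both groups, and its lowest library was a control. It averaged 56.3 ± 21.9 TPM in controls and 67.3 ± 26.5 TPM in InR-DN libraries (SD, n = 3 per group). Its log2 fold change was 0.27 (standard error 0.39, 95% interval -0.65 to 1.19, limma adjusted p = 1.00). At this spread even a rise of 1 log2 unit in LysX lies within the interval.

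LysS, known from the larval gastric caeca, was nearly absent in these adult libraries. It had 1, 5 and 2 reads in control replicates 1 to 3 and 1, 1 and 2 reads in InR-DN replicates 1 to 3, which corresponds to at most 0.436 TPM. The floor of 3 reads per library amounts to 0.261 to 0.345 TPM for LysS, so 5 of the 6 libraries were below it. LysS was below the minimum of 1 TPM in at least 3 libraries, was left out of the main test.

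**Figure D2:**
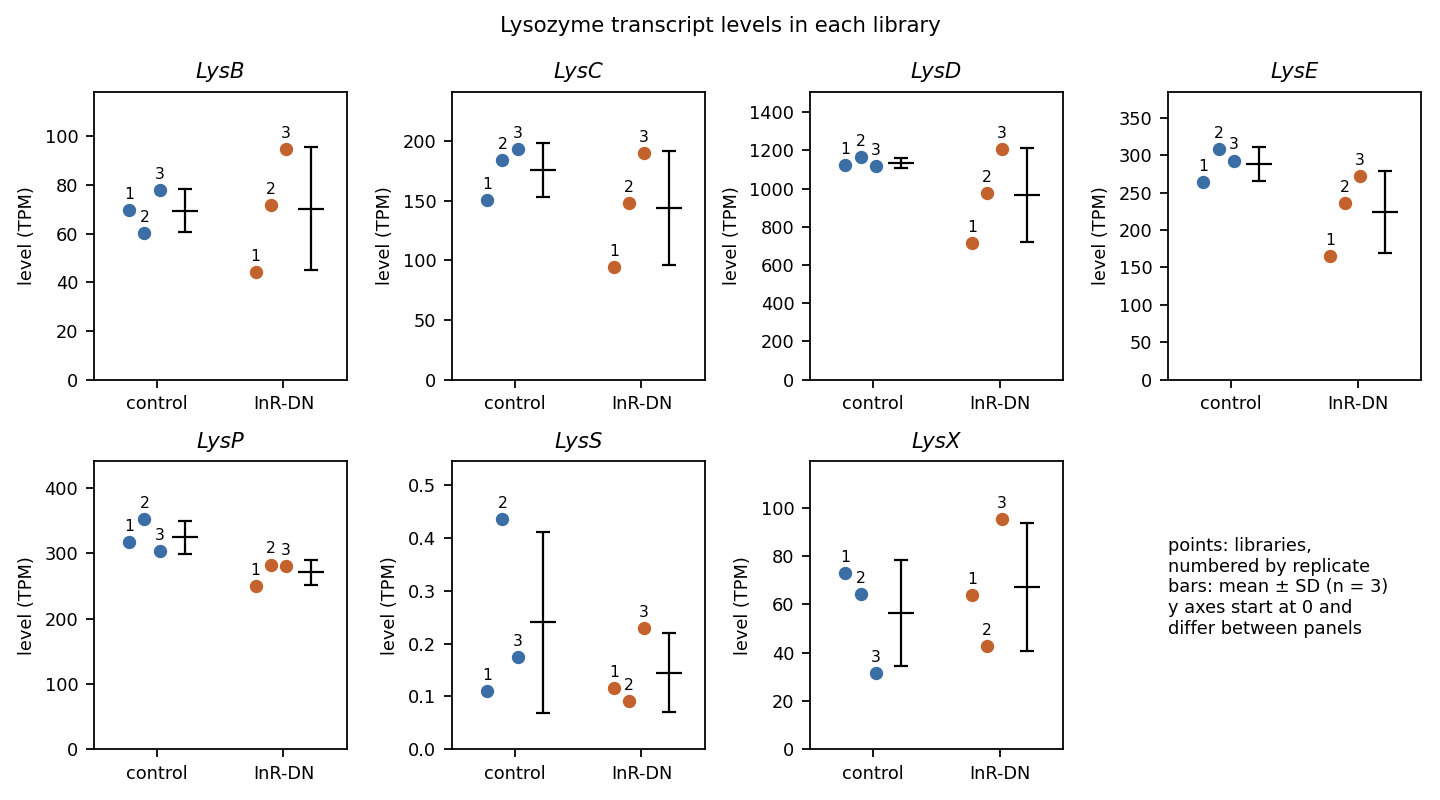
TPM of each lysozyme gene in each library (points, numbered by replicate), with the mean and SD of each group (n = 3) as bars; y axes start at 0 and differ between panels. LysP is the only gene whose groups do not overlap, and InR-DN replicate 1 is the lowest library for LysB, LysC, LysD, LysE and LysP.

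Of the 7 lysozyme genes 6 passed the filter on low values and were tested, and 0 passed an adjusted p of 0.05 in limma, as for 0% of the 10816 genes tested. A limma voom fit of the recovered reads also called 0 members. At an unadjusted p under 0.05, both fits listed 1 member, LysP. The main limma fit listed 3.15% of all genes, with those lower in InR-DN libraries making up 2.02% of all genes. The voom fit listed 352 of 11463 genes. The groups did not overlap, with the InR-DN group lower, for 1 of 6 members and for 3.78% of all genes, and in either direction for 1 of 6 members and 6.36% of all genes. With 6 members such a single gene is a small count, and it is not read as a property of the family. Means of log2(TPM + 1) were lower in InR-DN libraries for 5 of 6 members, against 45.4% of all genes, with a median log2 fold change of -0.26 for the members and 0.01 for all genes. Leaving out InR-DN replicate 1 moved the members' median to -0.06, and leaving out InR-DN replicate 3 moved it to -0.36. These members share a locus, and 4 of them may share reads, so they are not 6 independent observations.

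InR-DN replicate 1 contributed most to the lower means of LysC, LysD and LysE, and InR-DN replicate 2 also lay below every control for these 3 genes. In InR-DN replicate 1 LysB, LysC, LysD and LysE were at 63.8, 53.7, 63.0 and 57.1% of their control means. In InR-DN replicate 2 they were at 103.3, 83.9, 86.1 and 81.7%, and in InR-DN replicate 3 they were at 136.5, 107.7, 106.3 and 94.4%. Without InR-DN replicate 1 the log2 fold changes were 0.25 for LysB, -0.06 for LysC, -0.06 for LysD and -0.18 for LysE. Without InR-DN replicate 3 they were -0.29, -0.56, -0.44 and -0.54, and the unadjusted limma p fell to 0.0388 for LysC, 0.0192 for LysD and 0.0174 for LysE, with adjusted p of 1.00. The group difference of these 4 genes therefore differed widely with the InR-DN libraries included.

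The 4 midgut copies all had their lowest level in InR-DN replicate 1, and LysD made up most of their sum in every library. Their summed level was 1607, 1716 and 1682 TPM in control replicates 1 to 3 and 1019, 1432 and 1763 TPM in InR-DN replicates 1 to 3. LysD made up 66.4 to 70.2% of this sum in every library, LysE 15.4 to 17.9%, LysC 9.28 to 11.5% and LysB 3.51 to 5.38%. The share of LysD averaged 68.0 ± 1.74% in controls and 69.0 ± 1.09% in InR-DN libraries, a difference below the spread between replicates. The ratio of LysE to LysD was 0.235, 0.265 and 0.262 in controls and 0.230, 0.241 and 0.226 in InR-DN libraries, with overlapping groups. The ratio of LysB to LysD ranged further, from 0.0518 in control replicate 2 to 0.0786 in InR-DN replicate 3. In control replicate 2 LysB was at 86.9% of its control mean, while LysC, LysD and LysE were at 104.7, 102.5 and 106.8%, so LysB did not follow the other copies there. How many of these reads match more than 1 of the copies was not tested.

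LysP and LysX, which lie outside the 4 copies, also varied relative to LysD. The ratio of LysP to LysD was 0.283, 0.303 and 0.273 in controls and 0.349, 0.290 and 0.232 in InR-DN replicates 1 to 3. It was highest where LysD was lowest, since LysP stood at 76.8% of its control mean in InR-DN replicate 1 and LysD at 63.0%. The ratio of LysX to LysD ranged more widely, from 0.0282 in control replicate 3 to 0.0892 in InR-DN replicate 1.

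The levels fell in a stable order from LysD through LysP, LysE and LysC to LysB, and each neighbour in that order held its place in 6 of 6 libraries. Across libraries the ranges of LysP and LysE, of LysE and LysC, and of LysC and LysB overlapped. This order therefore holds within each library rather than between any 2 of them. LysB and LysX did not differ beyond their spread, with LysB above LysX in only 2 of 6 libraries and means over all libraries of 69.8 and 61.8 TPM. LysX was above LysS in 6 of 6 libraries, and all other members exceeded LysS by far.

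Counting error was compared with the differences between libraries. LysD rested on 6088 to 13031 reads per library and LysX, the tested member with the fewest, on 412 to 950 reads. The counting error of a single library, the inverse square root of its reads, was at most 1.28% for LysD and 4.93% for LysX, while the coefficient of variation between InR-DN libraries was 25.4% for LysD and 39.4% for LysX. Between controls it was 38.9% for LysX but only 2.22% for LysD. The largest LysD counting error, 1.28%, was that of InR-DN replicate 1, and the smallest, 0.876%, was that of control replicate 2. The spread of LysD between controls was thus small but still above counting error. These errors cover counting only.

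The genes whose levels most resembled the summed level of LysB to LysE included 2 digestive proteases among the first 6. Over the 6 libraries, the highest Pearson correlations of log2(TPM + 1) were with yip7 (0.993) and Jon65Aiv (0.989), both serine protease genes of the gut, followed by CG32633 (0.985), snoRNA:Psi18S-841d (0.982), Obp83b, an odorant-binding protein gene (0.978), and CG15674 (0.974). These correlations are descriptions over 6 libraries that share depth and tissue mixture, and 60 of 10810 genes had a correlation above 0.9. The snoRNA value rests on levels of at most 1.24 TPM. yip7 lay at 5748, 6186 and 5928 TPM in control replicates 1 to 3 and at 4071, 5245 and 6480 TPM in InR-DN replicates 1 to 3, so it was lowest and highest in the same libraries as LysD.

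The summed level of the 8 midgut digestion markers was lowest in InR-DN replicate 1, at 14957 TPM, against 19495 and 22075 TPM in InR-DN replicates 2 and 3 and 20692 to 22131 TPM in controls. Most of the sum came from alphaTry, betaTry, yip7 and Jon65Aiv, at 4767, 2812, 4071 and 2497 TPM in InR-DN replicate 1. Each of these had its lowest level there, and yip7 and Jon65Aiv are the proteases named above for their high correlation. Jon99Ciii, Mal-A1, Amy-p and mex1 each had their lowest level in another library. Not all midgut digestion markers followed LysB to LysE, as the correlation was 0.919 for alphaTry and 0.956 for betaTry but 0.341 for Jon99Ciii, -0.06 for the maltase gene Mal-A1 and 0.125 for mex1. Low sums in InR-DN replicate 1 were not limited to midgut genes. This library was also lowest for the photoreceptor sum, 3579 TPM, and the oenocyte sum, 6764 TPM. It was highest for the oocyte and nurse cell sum, 1305 TPM. The flight muscle, fat body and hemocyte sums were not lowest there. The part of the midgut share, or of the share of other body parts, in the lysozyme values was not tested.

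**Figure D3:**
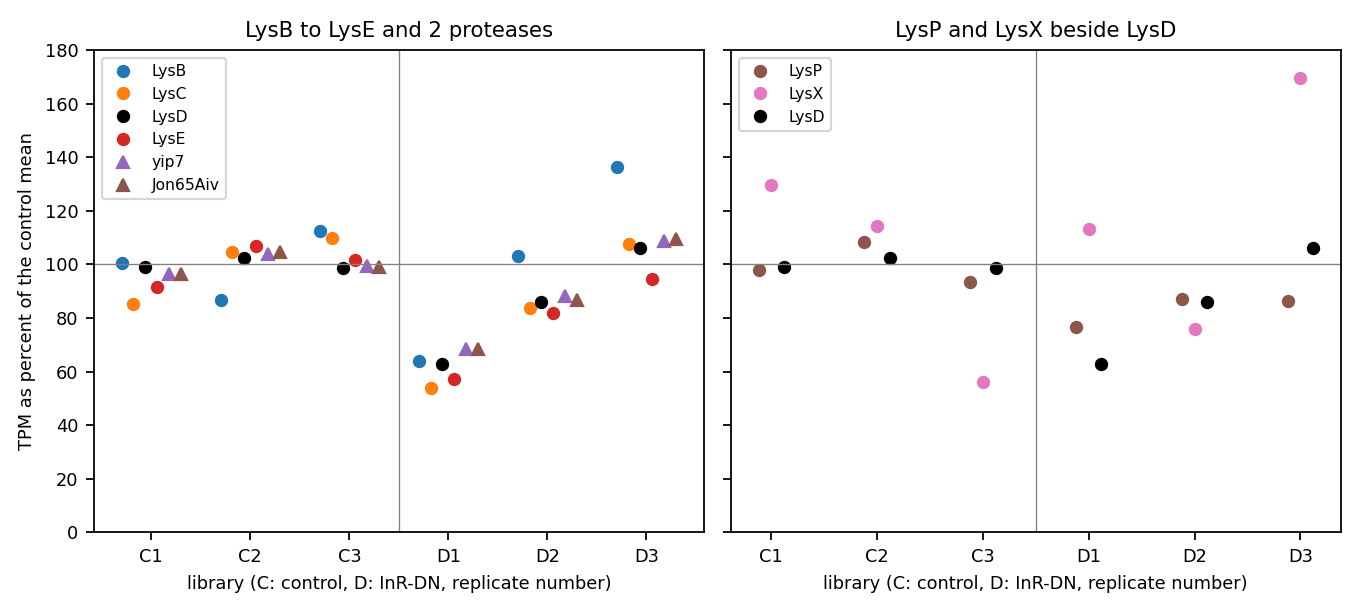
TPM of each gene in each library as a percent of its control mean. Left: LysB to LysE (circles) beside the proteases yip7 and Jon65Aiv (triangles), which all have their lowest value in InR-DN replicate 1. Right: LysP and LysX beside LysD, where LysX ranges from 56.0 to 169.5% and LysP from 76.8 to 108.5%.

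Other genes with a lysozyme domain were less abundant than LysD and also did not pass the test. Of 6 other c-type lysozyme-domain genes 3 were tested, and 0 passed, with 1 higher and 2 lower means. CG16799 averaged 82.5 ± 20.3 TPM in controls and 68.1 ± 8.83 TPM in InR-DN libraries (log2 fold change -0.25, standard error 0.19), and CG16756 averaged 59.2 ± 3.12 and 69.6 ± 21.8 TPM (0.19, standard error 0.20). The other 4 genes of this list lay between 0 and 1.97 TPM. Of the 4 i-type lysozyme genes, which encode the invertebrate type of the enzyme, 4 were tested and 0 passed, with 3 higher means and 1 lower mean.

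CG6426, the most abundant i-type gene, lay at 80.6, 76.8 and 79.2 TPM in control replicates 1 to 3 and at 81.2, 145 and 87.6 TPM in InR-DN replicates 1 to 3. Its groups did not overlap, with the InR-DN group higher as for 2.58% of all genes, but the margin was narrow and InR-DN replicate 2 stood far above the rest (log2 fold change 0.35, standard error 0.21, limma adjusted p = 1.00). The next i-type genes by level were CG6421, with a log2 fold change of 0.04, and CG6429, with -0.20. None of these 3 genes was lowest in InR-DN replicate 1, where LysB to LysE had their minimum.

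Genes that remove or sense peptidoglycan showed no change that passed either. The amidases of the PGRP family (peptidoglycan recognition proteins), which cut the peptides off the sugar chains of peptidoglycan, had 5 of 6 members tested. Of these, 5 had lower means, against 45.4% of all genes, and 0 passed the adjusted p. Their median log2 fold change was -0.14, against 0.01 for all genes. PGRP-SC1a and PGRP-SC1b ranked the 6 libraries in the same order, so these may not be 5 independent observations. PGRP-SC2, the most abundant of them, averaged 148 ± 2.14 TPM in controls and 141 ± 28.7 TPM in InR-DN libraries. PGRP-LB, an amidase that dampens immune signalling, averaged 39.9 ± 4.24 and 32.9 ± 3.69 TPM (log2 fold change -0.27, standard error 0.12), and PGRP-SB1 had a log2 fold change of -0.48 (standard error 0.55). PGRP-SB1 stood at 51.2 TPM in control replicate 3 and at 10.9 to 14.3 TPM in the other libraries.

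Of 7 peptidoglycan receptors and regulators, 7 were tested and 0 passed, with 2 higher and 5 lower means (against 45.4% lower among all genes). PGRP-SD, a secreted recognition protein, averaged 7.43 ± 1.42 TPM in controls and 5.41 ± 0.79 TPM in InR-DN libraries (log2 fold change -0.39, standard error 0.16, limma unadjusted p = 0.0495). The membrane receptor gene PGRP-LC averaged 31.8 ± 3.30 and 25.6 ± 3.77 TPM (-0.30, standard error 0.13), the intracellular receptor gene PGRP-LE had a log2 fold change of -0.02, and pirk, a negative regulator of the Imd pathway, had -0.09. In the limma voom fit 0 genes of these 4 lists passed, and 0 had an unadjusted p under 0.05, against 352 of all 11463 genes in that fit.

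**Figure D4:**
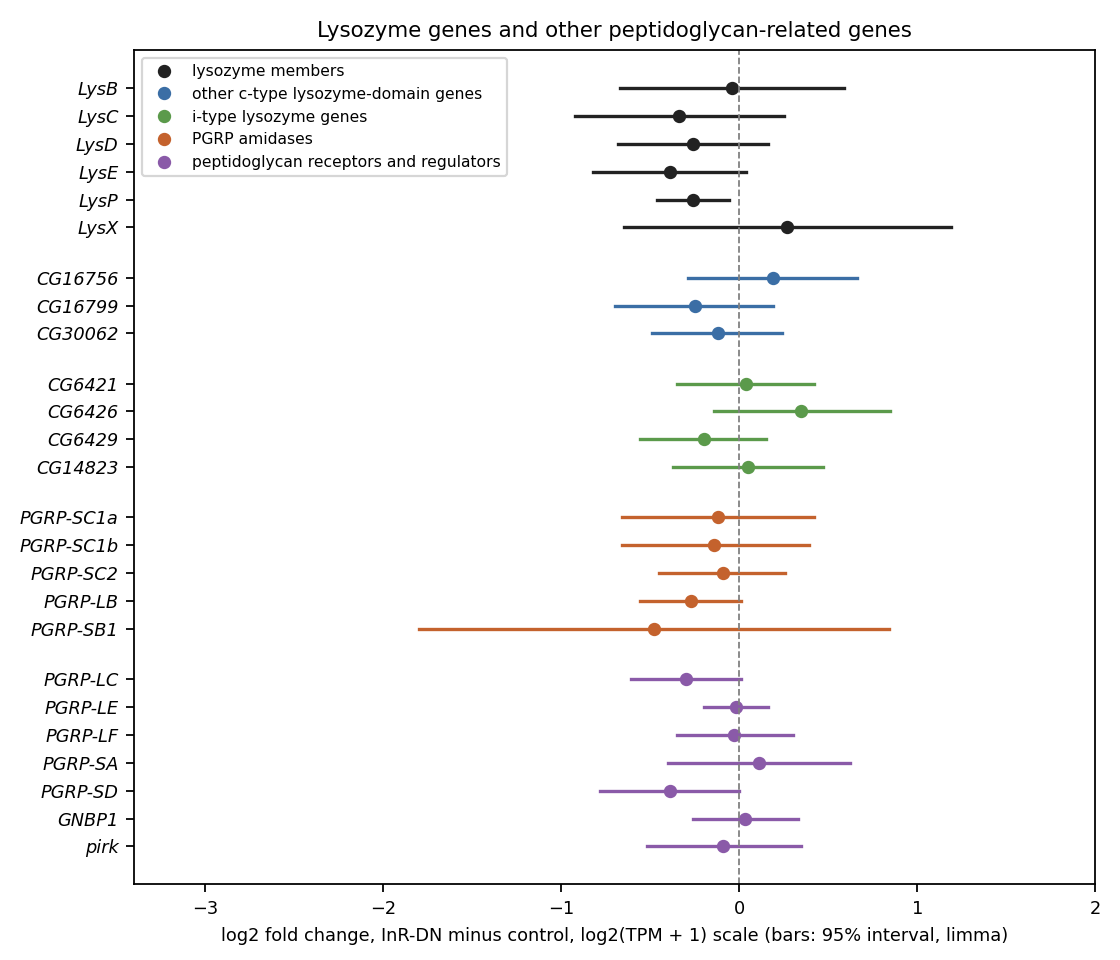
Log2 fold change (InR-DN minus control, log2(TPM + 1) scale) with its 95% interval from limma for the 6 tested lysozyme genes and 19 tested genes of 4 related lists. Among the lysozyme genes, only the interval of LysP, -0.46 to -0.06, does not include 0, and no gene passed the adjusted p.

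The genes around the lysozyme locus were examined in the same fit. Of 14 genes of the table that lie between the lysozyme genes or within 20 kb of them, 13 were tested, 5 with higher and 8 with lower means (against 45.4% lower among all genes) and 0 past the adjusted p, with log2 fold changes from -0.43 to 0.22. mwh, whose introns hold 6 lysozyme genes, averaged 2.54 ± 0.41 TPM in controls and 1.67 ± 0.549 TPM in InR-DN libraries (log2 fold change -0.42, standard error 0.18, limma unadjusted p = 0.0553). CG9119, between LysX and LysB, averaged 55.0 ± 2.22 and 48.5 ± 5.62 TPM (-0.18, standard error 0.10). LysS, which lies in the same large mwh intron as LysC, LysD, LysE and LysP, remained at or below 0.436 TPM in all 6 libraries, while LysD in that intron was never below 715 TPM.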

How the data were processed

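The deposited table holds TPM values, per the file headers, for 15010 genes and 6 libraries. Each column sums to 1000000. TopHat and edgeR are named, without version or role, per the submitters' processing notes. No source used here gives the genome build, the annotation or the counting tool. Trizol extraction and polyA libraries are stated per the labels' protocols. Columns were assigned by the initial of the group and the replicate number.

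BDGP6.54 held 11527 symbols as current and 3330 as older names. Whole reads came out of the TPM values with the annotated exon length for 94.7% of 14857 genes (relative tolerance 1e-06). For the rest, except 2 genes, the shortest other length that gave whole reads was taken. The main test was limma 3.58.1 (R 4.3.3, eBayes with trend) on log2(TPM + 1). It covered 10816 genes, those reaching 1 TPM in 3 or more libraries, with Benjamini-Hochberg adjustment over all of them. The fit was also run on simulated data, with larger effects than those of the members and equal spread in both groups. That run therefore does not measure how well differences of the members' size would be found. An exact permutation of 3 against 3 libraries cannot go below p = 0.1, so none is given. Named genes are all members, in each related list the 2 most abundant and the 2 with the smallest p, genes within 20 kb, and the 6 most correlated with the LysB to LysE sum. Members and lists were chosen with earlier results of these data known.

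Alternatives were other pseudocounts, filters and scalings, no trend, a replicate block, each library left out, and limma voom on reads (at least 10 in at least 3 libraries). Sequence comparisons of the genes were not analysed here.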

Additional observations from a re-analysis of the deposited data

How the results depend on the processing

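Over 15 alternatives, 86 of 90 log2 fold changes of the 6 tested members kept their direction and stayed above the adjusted p of 0.05, and 0 members passed in any of them (smallest adjusted p 0.537). The 4 values that changed sign came from leaving out 1 library. Leave-one-out values of LysB ran from -0.29 to 0.25, positive at 0.25 without InR-DN replicate 1 and at 0.05 without control replicate 3. Those of LysX ran from -0.10 without control replicate 3 (-0.02 without InR-DN replicate 3) to 0.55 without InR-DN replicate 2. The cause was not tested. Among all genes, 0 passed in the main fit, 1 with a pseudocount of 0.1 TPM, 1 in the voom fit, and 0 to 3 when a library was left out, with 3 without control replicate 2. Same-numbered libraries did not vary together over all genes tested (correlations of deviations from group means -0.41, -0.178 and -0.126). These correlations cannot show whether the libraries were paired. With a replicate block in limma, 0 genes passed, and LysE had -0.39 and an unadjusted p of 0.0252. In that fit LysP had -0.26 and 0.0203, and LysC -0.34 and 0.0557. LysS enters a fit only with no filter, on at most 5 reads per library, which are too few to show a difference.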

Other observations

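The spread of LysD differed between the groups in a way its mean does not show. The standard deviation of log2(TPM + 1) was 0.03 over the controls and 0.38 over the InR-DN libraries, a ratio of 11.9, and 98.8% of the genes tested had a smaller ratio. The ratio was 2.97 for LysB, 2.64 for LysC and 3.26 for LysE, against 0.921 for LysP, 0.891 for LysX and a median of 1.58 over all genes tested. A larger spread in InR-DN libraries was not particular to LysD. The genes named above as most correlated with the LysB to LysE sum all had it. The SD of TPM was 220.1 in controls and 1205 in InR-DN libraries for yip7, and 0.099 and 1.95 for CG15674. LysD was singled out after its values were seen, and with 3 libraries per group the difference in spread was not tested.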
